A study of Mus musculus with 4 samples.

Results

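Actins and actin-binding contractile genes were followed in NIT-1 cells, a mouse pancreatic β cell line, with and without added ERRγ. The members were all listed rows whose mouse gene ID maps to Actb, Actg1, Acta2, Tagln, Vcl, Actn1, Tpm4 or Msn. These 8 genes had 10 of the 406 named rows, 5 for the 3 actins and 5 for the actin-binding and adhesion proteins. They were proposed with the ERRγ against control differences of these same libraries in view, so every such difference below is a description and no test of it is claimed.

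The cells are of the NOD/Lt strain and were used at passages 20 to 25. The 2 groups had 2 libraries each and the labels' protocols call these biological replicates. The control group was transfected with the plasmid pRP[Exp]-CMVE>EGFP and the ERRγ group with pRP[Exp]-EGFP >ERR[gamma], each with 8.3 μg of plasmid and 16 μL of a liposomal reagent. NIT-1 is 1 tumour-derived line, and the labels name no sort for cells that took up the plasmid. No β cell marker of 17 looked for had a row among those analysed here, so the cell type could not be checked against its own genes. Of 15 markers of fibroblasts, stellate cells and smooth muscle, which also express Acta2 and Tagln, only Thy1 had a row, at 0 reads in both controls and at 22 and 24 reads in ERRγ replicates 1 and 2. The part of such cells in the results was not tested. None of 16 macrophage, duct and acinar markers had a row. In such bulk RNA, fewer cells of a type and less RNA per cell cannot be told apart.

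The libraries held 16605943 to 18769899 reads. Esrrg-201, a transcript of the added gene, was at 0.232 and 0 RPKM (reads per kilobase of row length and 1000000 reads of the library) in the controls, against 141 and 78.6 RPKM with ERRγ, in order of replicate number here and below. Another row of the gene, Esrrg-203, was at 0 and 0.355 RPKM in the controls, against 8.42 and 40.7 RPKM with ERRγ. These rows ordered the ERRγ replicates differently. Over all 406 rows, both ERRγ libraries lay below both controls in 185 rows and above both in 170 rows, so the rows themselves appear chosen on this contrast. An exact two-sided permutation test of 2 libraries against 2 cannot give a p below 0.333.

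Actin filaments are polymers of globular actin, and the proteins that cap, bundle and anchor them set cell shape, adhesion and contraction. In β cells a layer of filamentous actin under the plasma membrane is known to restrain insulin granules from reaching it. Free globular actin also holds back MRTF, a coactivator of the serum response factor SRF. When filaments form, MRTF is released and SRF drives genes that carry its site, the CArG box, among them actins, transgelin and vinculin.

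The coding sequences of the actins are shown first, because they show how alike the 3 actins are. Over the coding sequence, Actb-201 was 88.6% identical to Actg1-202 and 82.8% identical to Acta2-201, and the longest run without a difference between Actb and Actg1 was 62 nucleotides, shorter than a read of 151 nucleotides. With the 3 sequences lined up from their last codon, windows of 60 nucleotides in step with the codons were compared. Of these the most alike had 4 positions that were not the same in all 3 genes, marked in capitals:
Actb-201 (coding positions 892 to 951): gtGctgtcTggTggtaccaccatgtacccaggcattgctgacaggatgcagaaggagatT
Actg1-202 (coding positions 892 to 951): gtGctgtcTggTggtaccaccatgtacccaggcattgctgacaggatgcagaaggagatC
Acta2-201 (coding positions 898 to 957): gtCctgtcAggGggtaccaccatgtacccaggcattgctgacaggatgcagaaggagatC

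The least alike window lay at the start of the protein, where the actins are known to differ, with 22 such positions in capitals. Sequences are from GENCODE M21 on GRCm38, written 5′ to 3′, with coding positions counted from the A of the start codon.
Actb-201 (coding positions 1 to 60): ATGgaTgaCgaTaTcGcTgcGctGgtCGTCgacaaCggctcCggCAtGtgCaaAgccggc
Actg1-202 (coding positions 1 to 60): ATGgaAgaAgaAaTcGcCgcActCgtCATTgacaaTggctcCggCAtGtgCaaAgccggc
Acta2-201 (coding positions 7 to 66): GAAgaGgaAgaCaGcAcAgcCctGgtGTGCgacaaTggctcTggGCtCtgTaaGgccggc

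The CArG box was then searched for in the 250 bases upstream of the RefSeq starts (GRCm38.p6). Its pattern is the same on both strands, and the table of promoters held 6 of the 8 genes, Actb and Tagln being the others. An exact match began 90 bases before the start of Actg1 and 227 bases before that of Vcl, and is in capitals below. Of 32851 promoters of this length, 1.47% held an exact match. The stretch shown for Actg1 leaves out the bases nearest the start, where the Actg1-202 transcript already begins.
Actg1 (chr11:120348546-120348745, minus strand): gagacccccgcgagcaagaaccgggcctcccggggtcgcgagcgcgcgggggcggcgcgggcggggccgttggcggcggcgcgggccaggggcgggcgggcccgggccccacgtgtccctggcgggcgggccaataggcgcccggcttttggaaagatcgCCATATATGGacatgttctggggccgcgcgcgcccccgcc
Vcl (chr14:20929148-20929397, plus strand): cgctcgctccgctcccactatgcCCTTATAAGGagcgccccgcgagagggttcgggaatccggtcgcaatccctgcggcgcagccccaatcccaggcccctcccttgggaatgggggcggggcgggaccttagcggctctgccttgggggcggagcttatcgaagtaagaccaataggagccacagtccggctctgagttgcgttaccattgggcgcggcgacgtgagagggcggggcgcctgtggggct

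With 1 mismatch allowed, which 18.6% of all promoters satisfied, Acta2 had 2 further matches, 84 and 34 bases before its RefSeq start, in capitals here. Both lie inside the gene's span in GENCODE M21, which starts further upstream.
Acta2, farther match (chr19:34255438-34255467, minus strand): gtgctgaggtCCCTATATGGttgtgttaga
Acta2, nearer match (chr19:34255388-34255417, minus strand): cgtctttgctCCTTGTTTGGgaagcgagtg

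Tpm4, Actn1 and Msn had no match of either kind in these windows. A form of the response element of ERR receptors, TCAAGGTCA, was searched for as an exact match on both strands. It was in none of the 6 promoters and in 0.387% of all promoters. Other forms of the element were not searched for. These are matches of letters in a window and say nothing of binding in these cells.

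The cytoplasmic actins made up the most abundant rows. Actb-201, the full-length β-actin transcript (chromosome 5, 142903115 to 142906754, minus strand, 6 exons), measured 3411 RPKM in control replicate 1 and 3381 RPKM in control replicate 2. With ERRγ the 2 libraries measured 2840 and 2681 RPKM. The groups did not overlap, and the gap between them was wider than the range within either group. The mean was 18.7% lower with ERRγ, from 3396 ± 20.8 to 2760 ± 112 RPKM (SD, n = 2), the smallest relative difference among the 10 rows. Of the 10 rows, this one also varied least between the controls relative to its mean, by 0.868%. In RPKM its control range of 29.5 was wider than that of some other rows, such as Tpm4-201 at 24.5.

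A shorter β-actin transcript moved in a less regular way. Actb-207 (chromosome 5, 142903501 to 142906702, 5 exons) measured 24.1 and 48.3 RPKM in the controls, against 20.6 and 12.5 RPKM with ERRγ. Control replicate 2 was 2.01 times control replicate 1, so the difference between the controls exceeded the gap of 3.46 RPKM between the groups. Between 1.68% and 2.95% of its reads were uniquely placed.

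Actg1, for the cytoplasmic γ-actin, had 2 rows that ordered the controls differently. Actg1-204 (chromosome 11, 120345691 to 120348091, minus strand, 5 exons) measured 1212 and 1367 RPKM in the controls, against 899 and 793 RPKM with ERRγ. Actg1-202 (chromosome 11, 120345690 to 120348542, 6 exons) measured 286 and 241 RPKM in the controls, against 183 and 135 RPKM with ERRγ. Both were lowest in ERRγ replicate 2, and neither group overlapped the other in either row. The means were 34.4% and 39.7% lower with ERRγ.

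Acta2, the actin of smooth muscle and myofibroblasts (chromosome 19, 34241090 to 34255590, minus strand), was the least abundant actin gene. Its row measured 154 and 186 RPKM in the controls, against 104 and 106 RPKM with ERRγ. The ERRγ libraries differed by 2.47 RPKM and the controls by 32.0 RPKM, with a gap of 47.4 RPKM between the groups. The mean was 38.0% lower with ERRγ, from 170 ± 22.6 to 105 ± 1.74 RPKM (SD, n = 2). The row's length of 1781 nucleotides equals none of the gene's transcripts in GENCODE M21, so the row is known by its gene only. All of its reads were uniquely placed, except 1 of 3310 in ERRγ replicate 2.

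Tagln was the most abundant of the actin-binding genes. It encodes transgelin, a calponin-family protein that binds actin filaments and marks smooth muscle. Tagln-201 (chromosome 9, 45929619 to 45936058, minus strand) measured 608 and 790 RPKM in the controls, against 532 and 525 RPKM with ERRγ. The controls differed by 182 RPKM, more than the 75.9 RPKM between the lower control and the higher ERRγ library. The mean was 24.4% lower with ERRγ.

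Tpm4 encodes a tropomyosin, which winds along filaments and controls the access of myosin. Tpm4-201 (chromosome 8, 72135259 to 72153142, plus strand) measured 499 and 474 RPKM in the controls, against 408 and 378 RPKM with ERRγ. Its controls were close, with a range of 24.5 RPKM against a gap of 66.3 RPKM. The mean was 19.2% lower.

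Actn1 encodes α-actinin 1, which cross-links filaments and anchors them at adhesions. Actn1-201 (chromosome 12, 80167547 to 80260371, minus strand) measured 194 and 165 RPKM in the controls, against 125 and 117 RPKM with ERRγ, a mean 32.7% lower. Its gap of 40.1 RPKM was wider than the control range of 28.9 RPKM.

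Vcl and Msn, which tie actin to the cell's edge, varied more between the controls. Vcl-201, for vinculin of focal adhesions (chromosome 14, 20929398 to 21033676, plus strand), measured 110 and 84.2 RPKM in the controls, against 70.2 and 64.3 RPKM with ERRγ. Msn-201, for moesin, a linker of filaments to the plasma membrane (chromosome X, 96096042 to 96168552, plus strand), measured 160 and 121 RPKM in the controls, against 109 and 101 RPKM with ERRγ. For both rows the control range, 25.8 and 39.6 RPKM, was wider than the gap of 14.0 and 12.2 RPKM between the groups. The means were 30.7% and 25.3% lower with ERRγ.

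**Figure D1:**
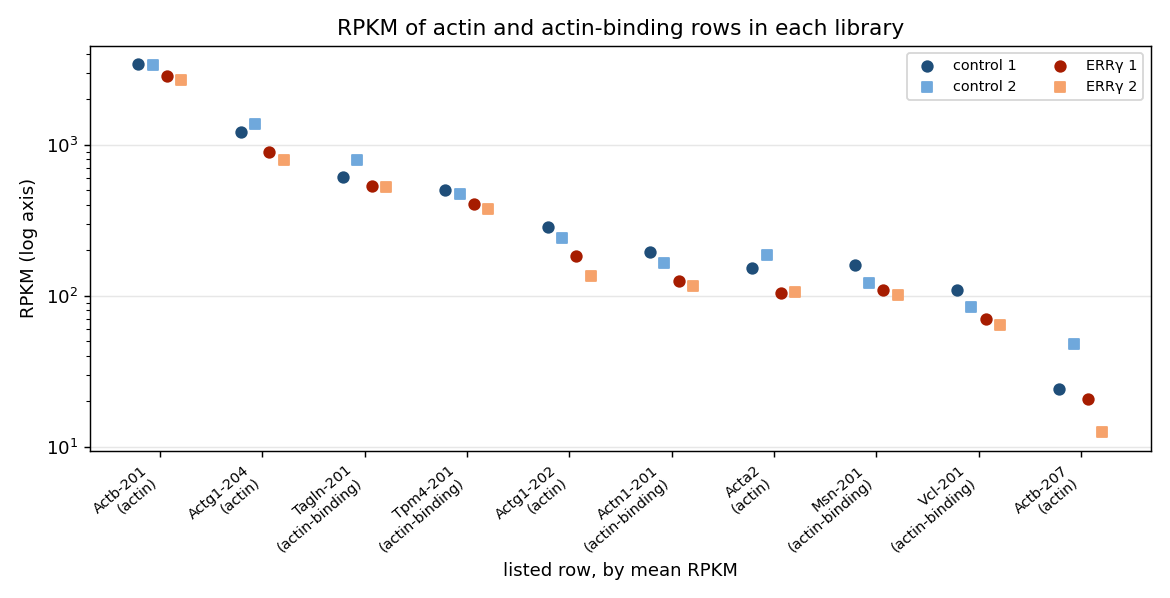
RPKM on a log axis for the 10 rows in each of the 4 libraries, 1 point per library, ordered by mean RPKM. In all 10 rows both ERRγ libraries lie below both controls, as in 45.6% of the 406 rows listed, and Actb-201 is the highest row at 2681 to 3411 RPKM.

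All 10 rows thus lay below both controls in RPKM, where 185 of the 406 rows (45.6%) did so. The members were chosen with their values in this contrast known, so nothing is read from that count. In 6 of the 10 rows, Actb-201, both Actg1 rows, Tpm4-201, Actn1-201 and Acta2, the gap between groups was wider than the control range. In the other 4, Tagln-201, Vcl-201, Msn-201 and Actb-207, it was narrower.

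The 2 control libraries did not simply differ in overall level. Tagln-201, Acta2, Actg1-204 and Actb-207 were higher in control replicate 2, by ratios of 1.30, 1.21, 1.13 and 2.01. The other 6 rows were lower there, with Msn-201 at a ratio of 0.753 and Vcl-201 at 0.766. In the ERRγ libraries 9 of the 10 rows were lower in replicate 2, Acta2 being the other at a ratio of 1.02.

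The RPKM sums of the actin rows and of the actin-binding rows kept a near constant ratio. Summed over their 5 rows, the actins measured 5087 and 5224 RPKM in the controls, against 4047 and 3728 RPKM with ERRγ. The 5 actin-binding rows summed to 1571 and 1634 RPKM in the controls and to 1243 and 1185 RPKM with ERRγ. The ratio of these sums was 3.24 and 3.20 in the controls and 3.25 and 3.15 in the ERRγ libraries, so the groups overlapped. Actb-201, with a mean 18.7% lower with ERRγ, dominates the first sum. The means of the other actin rows were 34.4% to 54.3% lower, and those of the actin-binding rows 19.2% to 32.7% lower. The near constant ratio therefore does not describe the other actin rows.

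The order of the rows by RPKM was steady. Actb-201, Actg1-204, Tagln-201, Tpm4-201 and Actg1-202 held the highest 5 places in every library, in this order, and Vcl-201 and Actb-207 came last. Between them Actn1-201 lay above Msn-201 in every library. Acta2 lay above Msn-201 in replicate 2 of each group and above Actn1-201 only in control replicate 2. In both ERRγ libraries Acta2 lay below Actn1-201. Together the 10 rows held 1.36% of the library's reads in each control, and 1.06% and 0.987% in ERRγ replicates 1 and 2. All listed rows together held 7.62% and 7.51% of the library's reads in the controls, and 6.41% and 6.26% with ERRγ. A lower share with ERRγ was therefore not particular to the 10 rows.

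Uniquely placed reads gave a different picture for the cytoplasmic actins. Actb-201 had 747 and 946 unique RPM, reads per 1000000 reads of the library, in the controls and 712 and 751 with ERRγ, so ERRγ replicate 2 lay above control replicate 1. Actg1-202 had 6.55 and 7.75 in the controls and 6.62 and 5.73 with ERRγ, and the groups again overlapped. The mean unique RPM was still lower with ERRγ, 731 against 847 for Actb-201 and 6.17 against 7.15 for Actg1-202. In both rows the unique share of reads was lowest in control replicate 1. For Actb-201 it was 11.4% there, against 13.1% to 14.6% in the other libraries. Actg1-204 had 0 unique reads in all 4 libraries. The non-overlap of these abundant actin rows in RPKM therefore rests on reads that were not uniquely placed.

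For the remaining genes the unique reads separated the groups as RPKM did. Acta2 had 274 and 331 unique RPM in the controls and 185 and 189 with ERRγ. Tagln-201 had 775 and 1039 against 705 and 709, and Vcl-201 had 476 and 394 against 324 and 293. In all, 7 of the 9 rows with unique reads lay below both controls, where 124 of 314 listed rows with any unique read (39.5%) did so and 76 of 111 (68.5%) of those with at least 10 in every library. Actb-207 was among the 7 with at most 17 unique reads in a library.

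**Figure D2:**
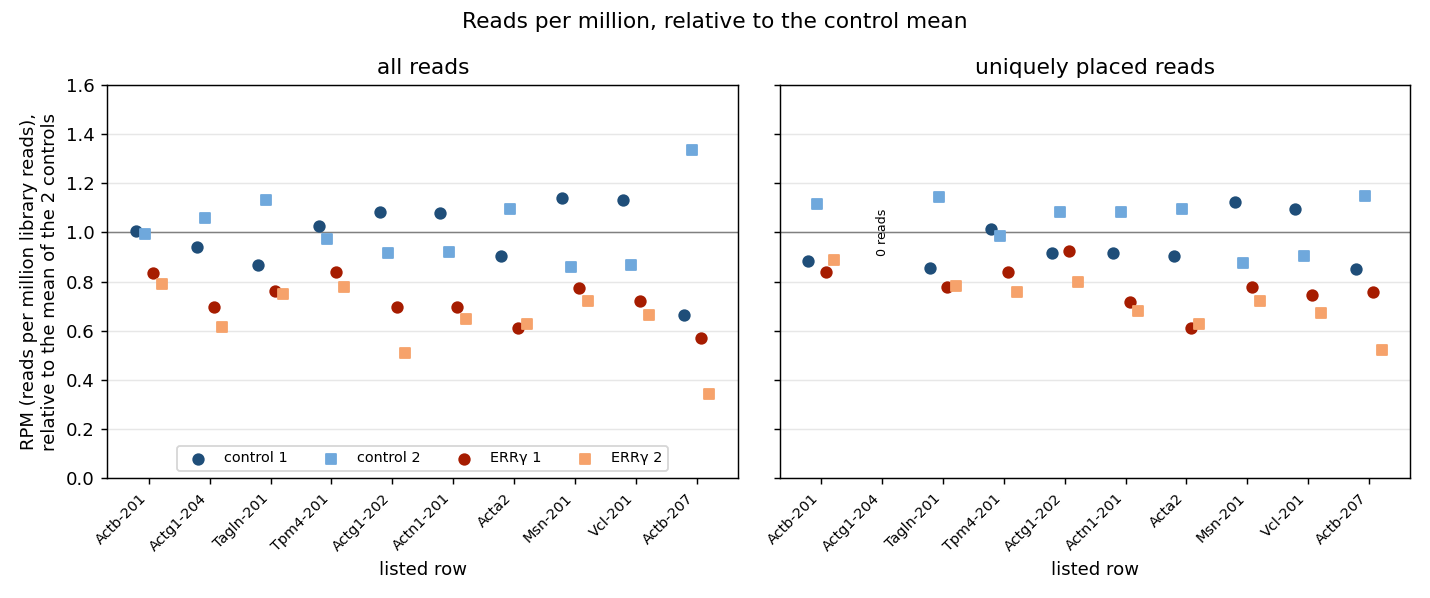
RPM of the 10 rows, divided by the mean of the 2 controls, for all reads (left) and uniquely placed reads (right), 1 point per library. With all reads both ERRγ libraries lie below both controls in each row, while with unique reads the groups overlap for Actb-201 and Actg1-202, and Actg1-204 has 0 reads.

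How much of a row was unique broadly followed how much of its sequence is shared. Every stretch of 151 nucleotides in each transcript was looked up in all transcripts of GENCODE M21, which may differ from the annotation the authors used. None of the windows of Actg1-204 was found in it alone, all of them recurring in other transcripts of the gene, and 46.7% also matched a transcript of another gene. For Actb-201 22.5% of the windows were in no other transcript, and 11.4% to 14.6% of its reads were unique. For Actn1-201 the values were 23.4% of windows and 14.2% to 19.7% of reads. Actb-207 followed less closely, at 13.4% of windows but 1.68% to 2.95% of reads. Vcl-201, Tagln-201, Msn-201 and Tpm4-201 had 77.4% to 88.0% such windows and 80.0% to 94.1% unique reads. For Actb no window matched another gene, so in exact matches its shared windows lie among its own transcripts.

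**Figure D3:**
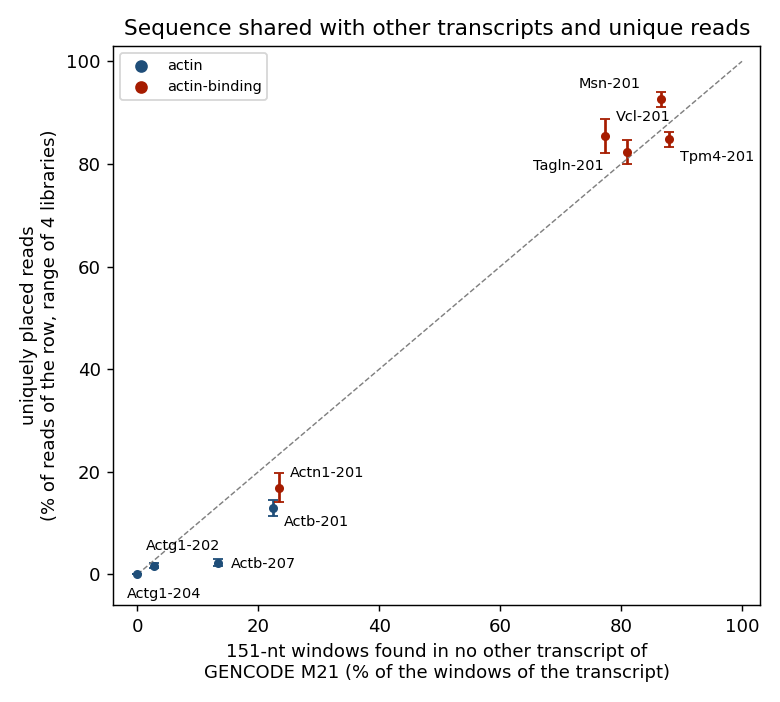
Share of 151-nucleotide windows of a transcript found in no other GENCODE M21 transcript (x axis, %) against the share of the row's reads that were uniquely placed (y axis, %, bars from lowest to highest of 4 libraries) for the 9 rows matched to a transcript. The actin rows and Actn1-201 lie at the lower left with at most 19.7% unique reads and the other 4 actin-binding rows at the upper right with at least 80.0%.

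Pseudogenes that resemble Actg1 were listed beside it. Of 30 listed rows annotated as pseudogenes, 6 aligned to a member transcript, all of them best to Actg1, with 93.6% to 99.6% identity: Actg-ps1, Gm12715, Gm47692, Gm6375, Gm8399 and Gm8543. They were found by alignment after the values had been seen. Actg-ps1-201, a processed pseudogene on chromosome 8 (46228994 to 46230117, plus strand), measured 1253 and 1122 RPKM in the controls, against 818 and 792 RPKM with ERRγ. Between 81.4% and 83.1% of its reads were uniquely placed, although it was 98.3% identical to Actg1-204 over 1108 nucleotides. By RPKM this pseudogene row stood close to Actg1-204.

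All 6 pseudogene rows lay below both controls in RPKM, where 45.6% of all listed rows did, and in unique reads, where 39.5% of rows with any and 68.5% of those with at least 10 in every library did. Their log2 fold changes ran from −1.02 for Gm8399, with at most 340 reads in a library, to −0.53 for Gm8543. The 2 Actg1 rows held 2774 and 2969 RPM in the controls and 2001 and 1712 with ERRγ. The 6 pseudogene rows held 2727 and 2329 in the controls and 1744 and 1641 with ERRγ, which was 44.0% to 49.6% of the sum of both. Added together they came to 5400 ± 143 RPM in control and 3549 ± 277 with ERRγ (SD, n = 2), a ratio of 0.657 against 0.646 for the Actg1 rows alone. Among the 6, only Gm12715 and Gm8399 held a stretch of 151 nucleotides identical to one in the Actg1 rows. Of the reads on the 6 rows, 37574 of 51180 and 29129 of 39355 were uniquely placed in the controls. With ERRγ these were 21284 of 28954 and 21324 of 28660. How reads that match both were divided was not stated, so neither value is certain alone.

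**Figure D4:**
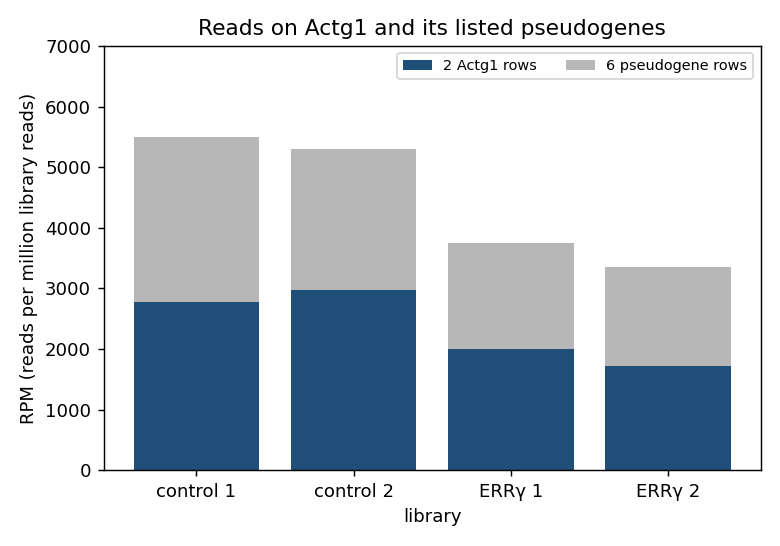
RPM on the 2 Actg1 rows (dark, bottom) and the 6 listed pseudogene rows that align to Actg1 (grey, top), stacked, 1 bar per library. The stacked totals are 5501 and 5299 in the controls and 3744 and 3353 in the ERRγ libraries, with the pseudogene rows at 44.0% to 49.6% of each.

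A model over the whole table put sizes and errors on these differences. It was edgeR's quasi-likelihood test of total reads with library sizes recovered from the tables, and its log2 fold changes are ERRγ over control. All 10 rows were tested, with log2 fold changes from −0.30 ± 0.07 (SE) for Actb-201 to −1.13 ± 0.55 for Actb-207. Acta2 stood at −0.69 ± 0.12, Actg1-204 at −0.61 ± 0.10, Actn1-201 at −0.57 ± 0.11 and Vcl-201 at −0.53 ± 0.15. The median was −0.69 for the actin rows and −0.42 for the actin-binding rows, beside −0.27 over all 375 rows tested. This gap between the classes was not seen in unique reads with the same library sizes. There Actb-201 and Actg1-202 stood at −0.21 each, Actb-207 at −0.64 and Acta2 at −0.69. The actin-binding rows lay between these, from −0.32 for Tpm4-201 to −0.52 for Actn1-201. In total reads Actb-201 and Tpm4-201, at −0.30 and −0.31, lay close to the median of all rows tested.

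With an adjusted p under 0.05, the model called 2 of the 10 rows lower, Actg1-204 and Acta2. Over all tested rows it called 21 lower, or 5.60%, and since the members were chosen with these values known, nothing is read from either count. Without any single library, control or ERRγ, it called 0 of the 10, with 1 or 2 rows of the whole table left. In unique reads with the same library sizes it called 6 of 9 lower, Tagln-201, Msn-201, Vcl-201, Tpm4-201, Acta2 and Actn1-201, where 51.2% of the 121 rows tested were called lower. With TMM scaling of the unique reads it called 0 of 9, where 10.0% of rows were called lower. With TMM on all reads it called 0 of 10 (0.268% of rows called lower), and DESeq2 called 5 of 10 lower (22.4%).

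The sign of 3 rows depended on the scaling of unique reads. Log2 fold changes were negative for all 10 rows with all reads under 3 scalings and for all 9 in unique reads with library sizes, but with TMM on unique reads Actb-201 stood at 0.13 ± 0.14 (SE), Actg1-202 at 0.13 ± 0.24 and Tpm4-201 at 0.019 ± 0.12, each within 1 SE of 0. TMM is a scaling that assumes most rows do not differ. That is in doubt here, as 185 of the 406 rows lay below both controls and 170 above both in RPKM. TMM was run on column totals of the listed rows in place of the library sizes. These 2 changes together raised log2 fold changes by a median of 0.16 in all reads and 0.34 in unique reads. Column totals without TMM raised those in all reads by a median of 0.25, so the rise in all reads came with the column totals and not with TMM. Relative to the median of the rows tested, all 10 members lay lower in all reads under those 3 scalings, and 5 of 9 in unique reads under both. With DESeq2, or with no filter of rows by count, 8 of the 10 lay lower in all reads. In unique reads Acta2 had the lowest log2 fold change of the 9 rows under both scalings, at −0.69 with library sizes and −0.35 with TMM.

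**Figure D5:**
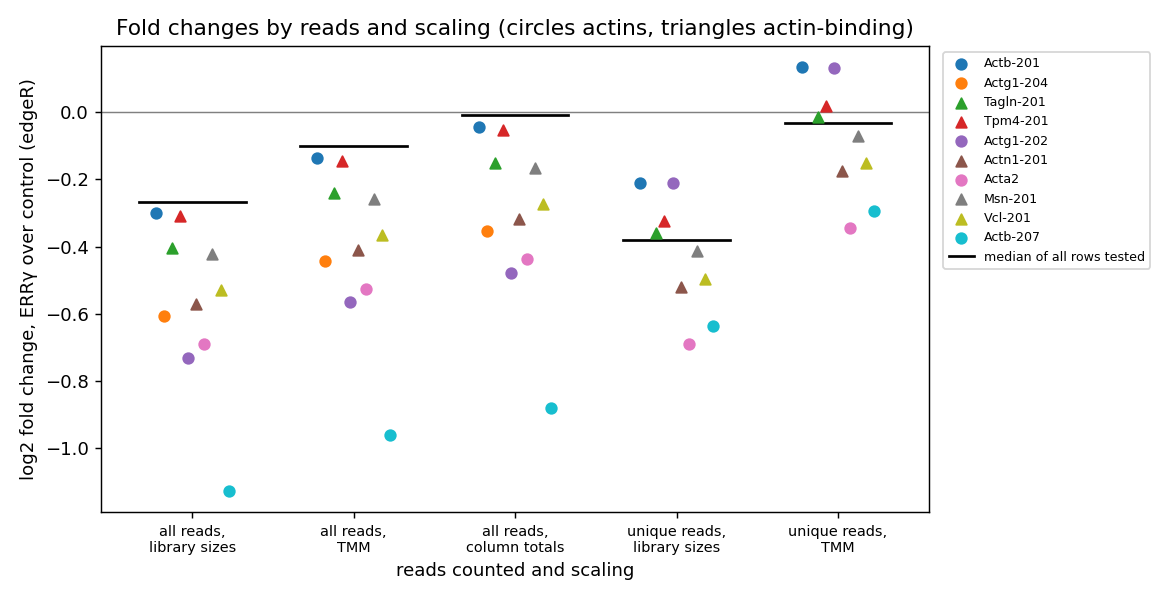
Log2 fold changes (ERRγ over control, edgeR) of the member rows under 5 combinations of reads and scaling, circles for actins and triangles for actin-binding rows, with black bars at the median of all rows tested. The points shift with the bars, and only with unique reads under TMM do Actb-201, Actg1-202 and Tpm4-201 lie above 0.

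Other genes of the actin and SRF system were sparsely listed. Of 43 contractile and SRF target genes, 6 had a row, with 7 rows in all, each below both controls, as were 45.6% of all listed rows. The model called 1 of the 7 lower and 0 higher, where it called 5.60% of all tested rows lower, and their median log2 fold change was −0.56 beside −0.27 over all rows. In unique reads with library sizes it called 4 of 5 lower, where 51.2% of all rows were called lower. The 1 called was Egr1-202, for a zinc finger transcription factor of the immediate early response, named after its values were seen. Myh9-201, for non-muscle myosin heavy chain, measured 256 and 216 RPKM in the controls, against 203 and 206 RPKM with ERRγ. Cald1-204, for caldesmon, which inhibits actomyosin, stood at 166 and 122 RPKM against 111 and 96.5 RPKM, with 0 unique reads. Junb-201, for an AP-1 subunit, stood at 243 and 302 RPKM against 185 and 184 RPKM, and Thbs1-201, for a matrix glycoprotein, at 271 and 178 RPKM against 127 and 109 RPKM. Myh9-201, Cald1-204 and Thbs1-201 were higher in control replicate 1 and Junb-201 in control replicate 2.

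Adhesion and filament regulators had fewer rows still. Of 44 adhesion and membrane linkers, 2 had a row, both below both controls (45.6% of all listed rows), and 0 of these were called (5.60% of all tested rows were called lower). Zyx-201, for zyxin of focal adhesions, measured 30.0 and 43.7 RPKM in the controls, against 25.9 and 23.1 RPKM with ERRγ, with 0 unique reads. Flna-203, a transcript of filamin A, stood at 16.6 and 5.74 RPKM against 2.45 and 2.09 RPKM, with at most 25 unique reads in a library. Of 47 actin filament regulators only Capzb had a row, with 232 reads in control replicate 1 and 0 in the other 3 libraries, and it was not tested.

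Likeness of pattern was measured against the most abundant actin row and the most abundant actin-binding row. Over the 4 libraries, the 3 rows of other genes nearest to Actb-201 in centred log2(RPKM + 1), of 396 compared, were Hsp90b1-201, Hsp90ab1-201 and Sdc4-201, at Euclidean distances of 0.07, 0.08 and 0.08. Hsp90ab1-201 measured 971 and 1022 RPKM in the controls, against 815 and 804 RPKM with ERRγ. Nearest to Tagln-201 were Gm37348-201, Fosl1 and Phlda1-201, at 0.12, 0.14 and 0.15. Fosl1, for an AP-1 subunit, stood at 108 and 124 RPKM against 85.9 and 83.5 RPKM. These points share the same 4 libraries and are a description only.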

How the data were processed

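RNA of 4 NIT-1 libraries was sequenced as paired 151-nucleotide reads, per the labels' protocols. The submitters' processing notes name the build mm8. Aligner, counting program and annotation: not given in the sources used here. The rule that chose the rows is not stated. Per the file headers, each deposited table lists 409 rows with RPKM and 2 raw counts, of unique and of total gene reads. Of these, 3 rows without a gene ID held 0.0121% to 0.0332% of listed reads and were left out.

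Total reads divided by RPKM gives row length times library size. A single library size per table made all 406 lengths whole within 0.01 nucleotides. Of these lengths, 397 equalled 1 transcript of the gene in GENCODE M21 on GRCm38, and rows carry that name. No mm8 coordinates were used.

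The model was edgeR 4.0.16 (R 4.3.3): total counts, recovered library sizes, filterByExpr, quasi-likelihood test, Benjamini-Hochberg adjusted p under 0.05. SEs were derived from the fold change and F. Alternatives changed scaling, reads, filter, tool (DESeq2 1.42.0, limma 3.58.1 on log2 of the authors' RPKM), library or replicate block. The model was also run on counts simulated for this comparison (403 rows, dispersion 0.01). It called 94.8% and 97.9% of rows changed by a log2 of −1 and 1. It called 100% of those changed by −2 and 2, and 1.96% of unchanged rows. The dispersion was set and not estimated from these libraries, and most member rows differed by less than the changes simulated. In the real counts Actb-207, at −1.13, was not called. These shares therefore do not give the power for the member rows. Pseudogenes were aligned with blastn 2.17.0. A zero count allows up to 3 reads, 0.160 to 0.181 RPKM for 1 kb, for counting error only.

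The members, lists and tests were chosen with earlier results of these data known. Named were all member rows, the 4 most abundant rows of each list, and the 3 rows nearest to the most abundant actin and actin-binding row.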

Additional observations from a re-analysis of the deposited data

How the results depend on the processing

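The counts of calls depended on nearly every choice. With library sizes and all reads, 25 of 375 rows and 2 of 10 member rows passed (edgeR), and 154 rows had an unadjusted p under 0.05. The counts for all rows and for member rows were 1 and 0 with TMM, 3 and 0 with column totals, 73 and 6 with unique reads, 41 and 0 with unique reads under TMM, 199 and 5 with DESeq2, 3 and 0 with limma on log2(RPKM + 1), 53 and 3 on log2(RPKM + 0.1), 1 and 0 without a filter, 42 and 4 with a mean count of at least 50, and 36 and 3 with the rows of a gene added. Where 0 member rows passed, the lowest member adjusted p was 0.0515 to 0.0957 over these settings. The calls split into 21 lower and 4 higher with library sizes, 12 and 29 with unique reads under TMM, and 91 and 108 with DESeq2. With the replicate block 1 row and 0 member rows passed; the numbers are not stated to mark a shared day or culture, and the replicates' deviations correlated at −0.08 over 375 rows, so they were not treated as pairs. Leaving out 1 library left 1 to 2 rows and 0 member rows, the lone library being assumed to vary like the other group. Of 138 member log2 fold changes under 14 alternatives, 135 were negative, from −1.55 to −0.20 with a library left out. The 3 that turned positive, all with unique reads under TMM, were Actb-201 (0.13), Actg1-202 (0.13) and Tpm4-201 (0.019). The unique values of Actb-207 rest on few reads, at most 17 in a library, where its total reads ran from 271 to 1014. The cause of this low share was not tested.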
